A study of Caenorhabditis elegans with 4 samples.

Results

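The DPY-30 peaks of chromosome V, the longest C. elegans chromosome, numbered 323 of the 2103 peaks in the series-level list. They were taken as all rows of that list on V, with no use of score, width or replicate support. The ChIP samples were 2 libraries made with a rabbit polyclonal antibody to DPY-30 (SDQ3499), beside 2 input libraries, for which no processed file was analysed here. All libraries came from mixed-stage wild-type N2 embryos of both sexes, raised at 20 °C. They were crosslinked in 2% formaldehyde for 30 minutes, and no mutant or treated group was compared. Peaks were also listed per ChIP library, with 163 of 882 on V in replicate 1 and 135 of 817 in replicate 2. A V peak is said here to be found in a replicate when it overlapped a peak of that replicate's list by 1 bp or more.

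DPY-30 is a small subunit shared by the COMPASS complexes, enzymes that methylate lysine 4 of histone H3 near active promoters on every chromosome, and by the dosage compensation complex, which acts on X. Which of these complexes holds the DPY-30 found on an autosome such as V was not tested here. C. elegans autosomes have gene-dense, weakly recombining centres and arms that are richer in repeats and in histone H3 lysine 9 methylation. V is known for large families of chemoreceptor genes, and its right arm holds the tandem array of 5S ribosomal RNA and SL1 spliced leader genes. Positions are in WormBase WS220, and since no annotation of that build was used, no gene is assigned to a peak.

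In the series-level list V was sparsely bound by number, and peaks also covered less of its length than on most chromosomes. It carried 15.4 peaks per Mb, against 19.6 to 27.2 per Mb on the other 5 nuclear chromosomes. The replicate lists set V less apart. In replicate 1, II had fewer peaks per Mb (7.53) than V (7.79). In replicate 2, V was lowest (6.45), with I close to it (6.70). In the series-level list the V share of peaks was 15.4% and its share of length 20.9%, a ratio of 0.736 (two-sided exact binomial test, p = 1.31e-10, adjusted p = 9.16e-10 over 7 tests). By replicate the ratio was 0.884 for replicate 1 (exact binomial p = 0.0819) and 0.791 for replicate 2 (exact binomial p = 0.00192), and 0.844 among series-level peaks found in both replicates (exact binomial p = 0.13). Series-level V peaks held 18.3% of all bases covered, 163 kb, with 108 kb (II) to 182 kb (X) on the other chromosomes. Per length, 0.777% of V was covered, above II (0.716%) and below IV (0.814%), I (0.925%), X (1.03%) and III (1.10%). The median V peak was 254 bp wide, against 260.5 bp on the other chromosomes, so the typical peak was no wider there.

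**Figure D1:**
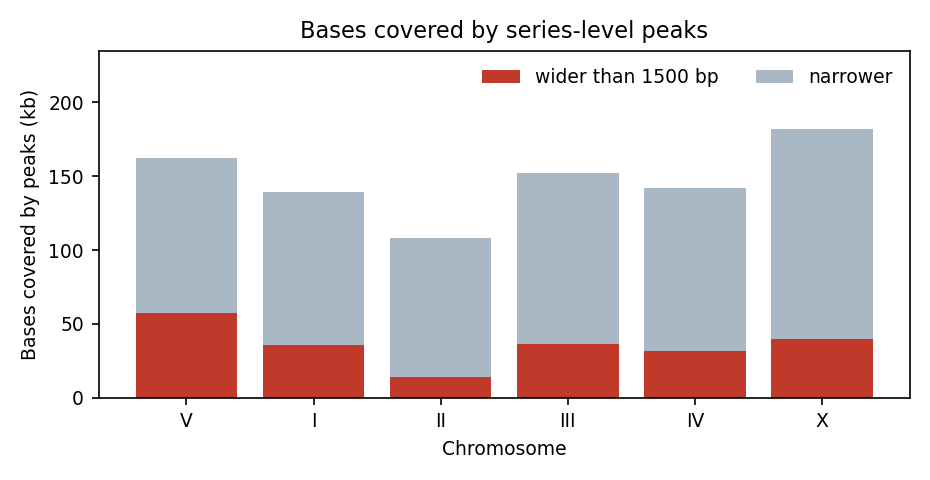
Bases covered by series-level peaks (kb) on V and on the other nuclear chromosomes, split into peaks wider than 1500 bp and narrower ones. V has 57.6 kb in wide peaks, more than any other chromosome, and 105 kb in narrower ones. Totals are not scaled to length, and V is the longest at 20.9 Mb. For comparison, III has 36.5 kb in wide peaks on 13.8 Mb.

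Peaks wider than 1500 bp, called broad here, held 35.4% of the bases covered on V. On the other chromosomes that share ran between 13.3% on II and 25.7% on I. The lead of V was smaller in the replicate lists. It was 40.9% on V and 39.5% on III in replicate 1, and 55.0% on V and 53.5% on I in replicate 2. V had 15 broad peaks of 323 (4.64%, exact 95% interval 2.62 to 7.54%), against 55 of 1778 (3.09%, 2.34 to 4.01%) elsewhere and 3.33% over all nuclear peaks. This difference in shares missed the threshold of 0.05 (two-sided Fisher's exact test, p = 0.175, adjusted p = 0.377 over 7 tests). It depended on where the line was drawn. Above 1000 bp the shares were 8.98% on V and 5.23% elsewhere (29 of 323 and 93 of 1778, Fisher's exact p = 0.0132). Above 2000 bp they were 4.33% and 1.97% (14 of 323 and 35 of 1778, Fisher's exact p = 0.0151), and both p-values are unadjusted. The narrowest broad peak on V was 1860 bp and the widest one below the line was 1473 bp.

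Both replicates held all 15 broad V peaks, and 47 of the 55 on the other chromosomes (85.5%). By chromosome these were 11 of 11 on X, 12 of 13 on I, 6 of 7 on II, 10 of 13 on III and 8 of 11 on IV. An overlap of 1 bp sufficed, so a broad peak found in a replicate need not be broad there. Of the 15 on V, 8 overlapped more than 1 peak of replicate 1, and 4 more than 1 peak of replicate 2. The broad V peaks had a median width of 2909 bp. Their series-level scores ran from 11.1 to 53.2 (median 21.9), while the median over all V peaks was 5.47. They fell into 12 places, because 3 of these places held a neighbouring pair. The centre held 6 of its 112 peaks as broad (5.36%), against 9 of 211 in the arms (4.27%; Fisher's exact p = 0.782, adjusted p = 0.782), so a difference between centre and arms was not detectable.

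The widest V peak, at 7916846 to 7925033 in the centre, spanned 8188 bp and scored 36.2 in the series-level list. The replicates drew it differently. In replicate 2 it was a single peak of 8170 bp at a score of 3100, while in replicate 1 it was 7 separate peaks, of which the best scored 132 and was 307 bp wide. The next, at 10605625 to 10612500, close to the midpoint of V, had almost the same limits in both lists. It was 6849 bp wide in replicate 1 and 6946 bp in replicate 2, with scores of 1956 and 3100. The left-arm peak at 3434572 to 3441104 also kept its outline, at 6612 and 6568 bp, with scores of 1151 and 1320.

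On the right arm, 4 peaks stood in a row between 17115403 and 17132105, all found in both replicates. The first pair was narrower, at 17115403 to 17116121 (719 bp, series-level score 30.0) and at 17117801 to 17118882 (1082 bp, 29.2). The broad pair followed, at 17119928 to 17126584 (6657 bp, 27.2) and at 17128150 to 17132105 (3956 bp, 27.1). The 6657 bp peak was the only V peak that scored 3100 in both replicate lists. Its broad neighbour scored 1953 in replicate 1 and 3100 in replicate 2. Exact values of 3100 recur in these lists, so the order of such peaks within a list is not resolved.

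The remaining broad peaks included the left-arm peak at 4333203 to 4336700, which was 3498 bp wide with a series-level score of 33.7. It scored 1060 in replicate 1 and 3100 in replicate 2. A pair in the centre, at 9428434 to 9431084 and at 9432169 to 9435335, scored 16.0 and 15.4 in the series-level list. Both ranked higher in replicate 2, within the first 9.30% and 6.73% of that list, than in replicate 1, where their best overlapping peaks stood at 66.0% and 25.2%. The right-arm peak at 17308685 to 17311593, 2909 bp wide, scored 307 in replicate 1 and 870 in replicate 2. Of the 15 broad peaks, 10 had the better rank by score in replicate 2 and 4 in replicate 1, and 1 stood at 3100 in both.

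**Figure D2:**
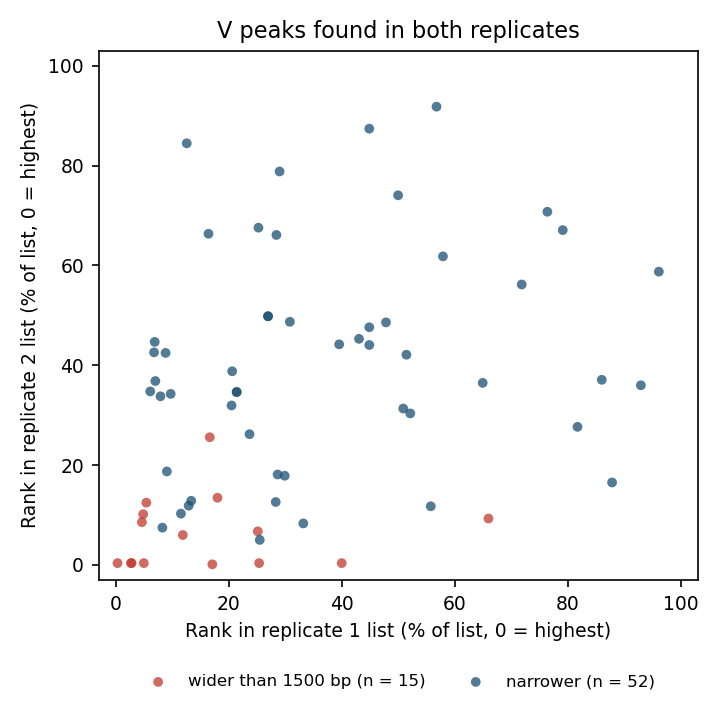
Rank by score in the replicate 1 list against rank in the replicate 2 list (both as % of the list, 0 the highest) for the 67 V peaks found in both replicates, each point a series-level peak with its best-scoring overlapping peak. Broad peaks (n = 15) lie within the first 25.6% of replicate 2, where 7 of them have scores of 3100 or more, and narrower peaks (n = 52) spread over both lists.

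The strongest V peaks were the adjoining broad pair at 9086757 to 9088759 and 9088869 to 9091113, in the centre and 109 bp apart. Their series-level scores were 53.2 and 48.6, ranks 33 and 37 of 2101. The first scored 1025 in replicate 1 and 916 in replicate 2, and the second scored 1064 and 1126, within the first 12.5% of both lists. The narrow right-arm peak at 14038484 to 14038987 (504 bp) had rank 4 on V, at 35.1. It scored 272 in replicate 1 and 173 in replicate 2, at 20.6% and 38.8% of those lists by rank. Among the first 100 series-level ranks 14 were V peaks, 6 of them broad, while V held 15.4% of all nuclear peaks. Of the same 100, X held 48, and the other autosomes held between 7 (I) and 11 (III) each.

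Replicate support on V was the highest of the autosomes, and below that on X (96 of 415, 23.1%). Both replicates held 67 of the 323 V peaks (20.7%, exact 95% interval 16.5 to 25.6%), beside 18.1% of all nuclear peaks. The other chromosomes together gave 313 of 1778 (17.6%, 15.9 to 19.5%), a difference that missed the threshold (two-sided Fisher's exact p = 0.182 and adjusted p = 0.377). Against the other autosomes alone, a comparison added after the values were seen, V stood higher, with 217 of 1363 there (15.9%; Fisher's exact p = 0.0391, unadjusted). With broad peaks left out the shares were 16.9% on V, 15.4% on the other chromosomes and 13.7% on the other autosomes. Single-replicate support on V was 57 peaks for replicate 1 and 43 for replicate 2, and 156 V peaks (48.3%) were found in neither, close to the 49.1% of all nuclear peaks.

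Supported peaks scored higher and were wider. A wide peak reaches an overlap of 1 bp more easily. Whether the series-level list pools the same libraries is not stated, so score and support may not be independent. The median score was 15.8 for V peaks found in both replicates and 4.15 for those found in neither, and their median widths were 789 and 197 bp. The 67 peaks held 56.1% of all V bases covered, and the 156 unsupported ones held 20.8%. By width, 4 of the 109 peaks of up to 200 bp were found in both replicates, 16 of the 36 between 500 and 1000 bp, and 12 of the 14 between 1000 and 1500 bp.

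At scores of 20 or more, 26 of 33 V peaks were found in both (78.8%, 61.1 to 91.0%), against 134 of 154 elsewhere (87.0%, 80.7 to 91.9%). Between 10 and 20 the counts were 22 of 49 on V (44.9%) and 104 of 271 elsewhere (38.4%), with overlapping intervals. Between 5 and 10 V was lower, with 7 of 96 (7.29%) against 62 of 620 elsewhere (10%), again with overlapping intervals. Below a score of 5, V lay above the other chromosomes. There 12 of 145 V peaks (8.28%, 4.35 to 14.0%) were found in both replicates, against 13 of 733 elsewhere (1.77%, 0.948 to 3.01%). On single chromosomes that share ran between 0.781% on I and 2.94% on III. This range of scores was picked after the values were seen, so no test is given. The 12 weak peaks shared supporting peaks, and rested on 9 peaks of replicate 1 and 11 of replicate 2.

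**Figure D3:**
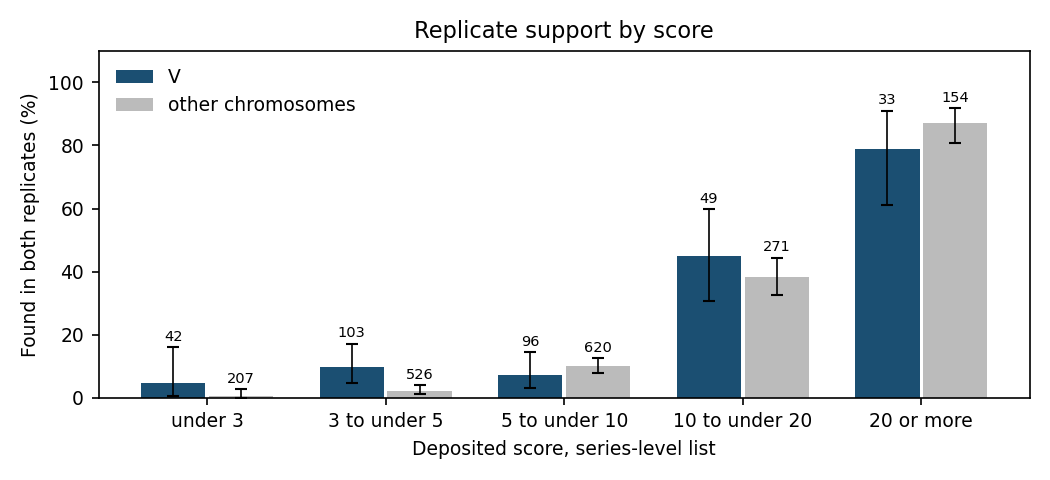
Share of series-level peaks found in both replicates (%) by deposited score, for V and for the other chromosomes, with exact 95% intervals and the number of peaks above each bar. The share on V goes up to 78.8% at scores of 20 or more, and V lies above the other chromosomes in both classes below 5.

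These weak but repeated peaks included several that the replicate lists drew as wider and stronger features. At 14756810 to 14757392 the series-level score was 1.43, while the overlapping peaks scored 272 in replicate 1 and 236 in replicate 2, within the first 20.5% and 31.95% of those lists. The pair at 7443096 to 7444391 (score 4.15) and 7444546 to 7444702 (1.36) overlapped a single peak in each replicate, 1633 bp wide in replicate 1 and 1641 bp in replicate 2. A further 3 of the 12, between 8707640 and 8709402, overlapped a single 2457 bp peak of replicate 1 that scored 113, the last of them only in part. In replicate 2 the same stretch was 3 peaks, scoring 56.7 to 136.

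Some strong V peaks lacked support. The peak at 10897252 to 10897486 scored 20.5, rank 32 on V, and was found in neither replicate. The other unsupported peaks with high scores, at 1868637 to 1868945, 17519184 to 17519387, 20923847 to 20924009 and 10965542 to 10965785, scored 11.4 to 13.0. All 5 were narrow, 163 to 309 bp. The peak at 20923847 to 20924009 was the last on V, while the first, at 1 to 333, scored 9.43 and was found in both.

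Along V, no difference in peak density between arms and centre passed the threshold. The cuts were made by length alone and need not match the gene-dense centre. An alternative cut came close, as the central 50% of the length held 179 of 323 peaks (55.4%, exact 95% interval 49.8 to 60.9%; two-sided exact binomial test, p = 0.0583, unadjusted). The centre, taken as the central 33.3% of the length (6974670 to 13949339), held 112 of 323 peaks (34.7%, exact 95% interval 29.5 to 40.1%). That did not differ detectably from its share of length (two-sided exact binomial test, p = 0.637, adjusted p = 0.777). Per Mb the centre carried 16.1 peaks, the left arm 13.8 and the right arm 16.5. Of the 211 arm peaks 96 lay on the left (45.5%, 38.6 to 52.5%; exact binomial p = 0.215, adjusted p = 0.377). Median scores were also close, at 5.92 in the centre (interquartile range 3.82 to 9.95), 5.76 on the left arm (3.75 to 9.85) and 5.27 on the right arm (3.41 to 11.3).

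**Figure D4:**
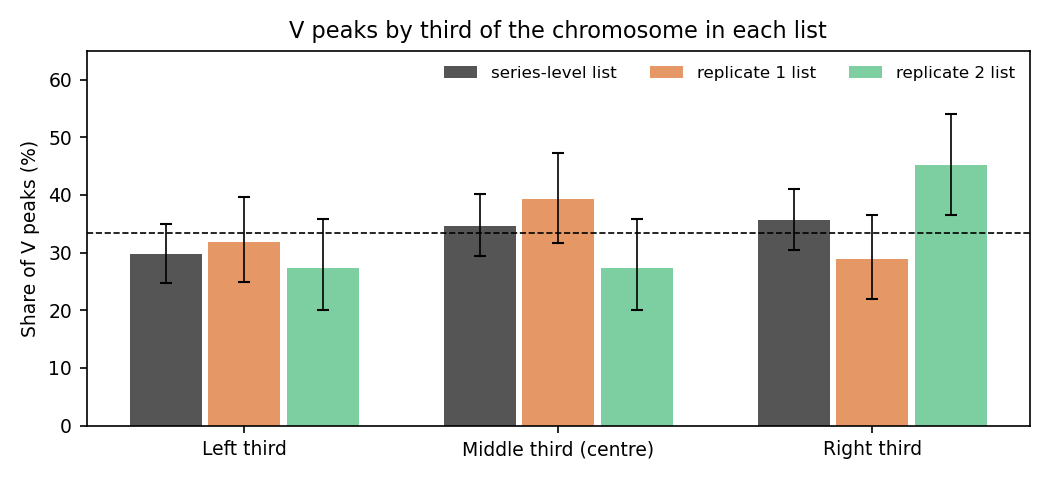
Share of V peaks (%) in the left, central and right 33.3% of the chromosome for each list, with exact 95% intervals and a dashed line at 33.3%. Replicate 1 has its highest share in the centre (39.3%) and replicate 2 on the right (45.2%).

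The replicate lists gave different layouts. The centre held 64 of 163 V peaks in replicate 1 (39.3%, 31.7 to 47.2%) and 37 of 135 in replicate 2 (27.4%, 20.1 to 35.7%). The mean was 33.3% ± 8.38 (SD, n = 2), and neither share passed the exact binomial test against 33.3% (p = 0.115 and p = 0.171). The right arm held 47 V peaks in replicate 1 and 61 in replicate 2, where the left arm had 37 (exact binomial test of left against right in replicate 2, p = 0.0197, unadjusted). A single run near 17.4 Mb supplied 16 of those 61. With runs of at least 10 peaks left out, an alternative added after the values were seen, the left arm of replicate 2 held 37 of 82 arm peaks (45.1%, exact binomial p = 0.44).

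By part of V, the centre had 25 of 112 peaks found in both replicates (22.3%, 15.0 to 31.2%), against 42 of 211 in the arms (19.9%, 14.7 to 25.9%; Fisher's exact p = 0.666, adjusted p = 0.777). On the left arm 24 of 96 peaks (25%) were found in replicate 1 alone, and on the right arm 12 of 115 (10.4%), beside 17.6% over V. These peaks are not independent, as 5 of the 24 overlapped a single replicate 1 peak at 6171674 to 6176175. The difference between the arms was not tested. Peaks found in neither made up 49.1% of the centre, 39.6% of the left arm and 54.8% of the right arm.

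**Figure D5:**
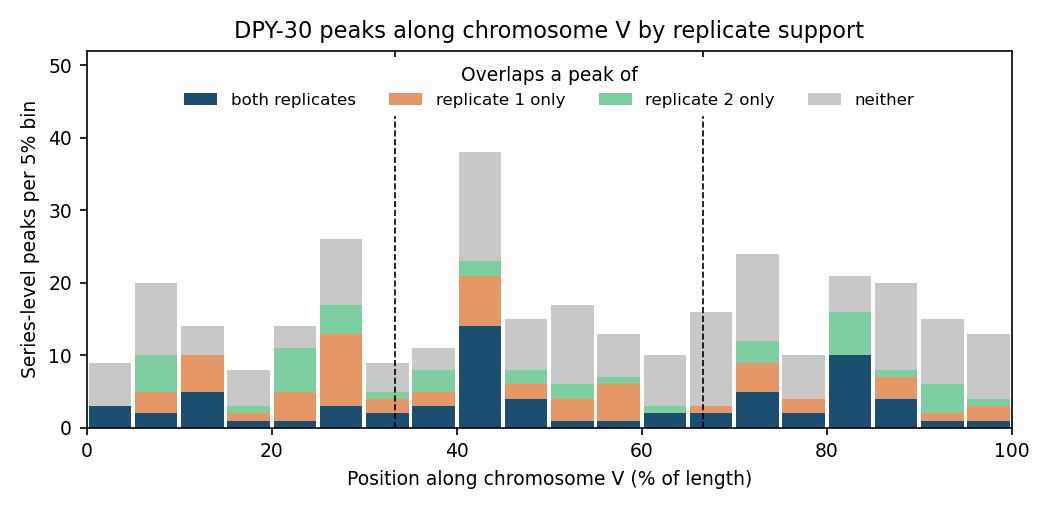
Series-level V peaks per 5% of chromosome length, from the left end (0%) to the right end (100%), stacked by the replicates in which they were found, with dashed lines around the centre. The bin from 40 to 45% is the highest, with 38 peaks, 14 of them found in both replicates.

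Within these averages V was uneven. The stretch from 8 to 9 Mb held 32 peaks, 11 of them found in both replicates, while that from 4 to 5 Mb held 5. The stretch from 17 to 18 Mb had 25 peaks, 12 found in both, and 3 broad. From 11 to 12 Mb, from 15 to 16 Mb and beyond 20 Mb, 13, 15 and 11 peaks were listed and 0 of them were found in both. The longest stretch without a series-level peak was 628 kb, between the strong broad peak ending at 4336700 and a weak peak (score 2.79) starting at 4964259. Replicate 1 listed 2 peaks inside it and replicate 2 listed 0. The next longest, 391 kb from 267275 to 658130 and 389 kb from 6267774 to 6656738, held 0 peaks of either replicate.

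Many V peaks stood in short runs. With gaps of at most 5000 bp, 21 runs of 3 or more peaks held 100 of the 323 peaks (30.96%), 10 runs lying on the left arm, 6 in the centre and 5 on the right arm. On the other chromosomes the share in such runs was between 19.8% on X and 39.2% on III. The largest on V, at 17384100 to 17394355, had 10 peaks, whereas the largest on III had 49. Of its 10 peaks, 5 were found in both replicates and 5 in replicate 2 alone. The replicate lists held 5 peaks in this run in replicate 1 and 16 in replicate 2. Its peak at 17392145 to 17393058 stood at 55.8% of the replicate 1 list by rank and at 11.75% of replicate 2. That at 17393567 to 17394355 stood at 87.9% and 16.5%, and a weaker one, at 17391465 to 17391803, at 92.97% and 35.99%.

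Other runs had different support. The 9 peaks at 8695057 to 8709402 scored at most 6.53, and 3 were found in both replicates. The run at 8889376 to 8898541 had 8 peaks, 4 found in both replicates, 1 in replicate 1 alone and 3 in neither. At 6171669 to 6180351, 5 of 7 peaks were found in replicate 1 alone, all overlapping a single peak of that list. At 5073375 to 5076803, all 6 peaks lay under a single replicate 2 peak. The 5-peak runs at 1215310 to 1217834 and 20434072 to 20437378 scored at most 4.15 and 4.97, and no replicate peak touched them.

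A repeated pattern stood out near 8.9 Mb. Over 51.3 kb from 8847266 to 8898541 lay 14 peaks, 7 of them of nearly equal width, 964 to 1164 bp, in a group of 3 and a group of 4. The 7 others, in and between these groups, were 146 to 270 bp wide with scores of 2.96 to 7.53, and 0 of them were found in both replicates. In the first group, at 8847266 to 8848340, 8849733 to 8850896 and 8852893 to 8853856, successive midpoints were 2511.5 and 3060 bp apart. In the second, at 8889376 to 8890447, 8891891 to 8892948, 8894998 to 8896049 and 8897518 to 8898541, they were 2508, 3104 and 2506 bp apart. The series-level scores of the 7 wider peaks ran from 15.4 to 30.9.

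All 7 wider peaks were found in both replicates and ranked far higher in replicate 1. Their scores were 574 to 842 in replicate 1 (median 743), within the first 10% of that list. In replicate 2 they scored 135 to 209 (median 189), beyond the first 30%. No other V peak had this combination, and 12 peaks on the other 5 chromosomes did. The opposite combination was met by 3 V peaks, at 6942038 to 6942960, 7916846 to 7925033 and 9428434 to 9431084, and by 7 peaks on the other chromosomes. This pattern was picked out after the values were seen. Reads that match more than 1 place can be split between near-identical copies, and their part in these scores was not tested.

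Over all 67 V peaks found in both replicates, the scores of the replicates ranked only loosely alike. Spearman's rho was 0.42 over these peaks and 0.24 over the 52 narrower ones, given as a description because neighbouring peaks can share a supporting peak. The value over all 67 includes 7 broad peaks at 3100 or more in replicate 2. All of these but the peak at 5283236 to 5285731 (3127) stood at exactly 3100, and the order of those tied is not resolved. The largest disagreement in rank was at 9344065 to 9344528, at 12.6% of the replicate 1 list and 84.5% of replicate 2. The midpoints of the best overlapping peaks lay a median of 56 bp apart, although up to 1805.5 bp apart for broad peaks that one list split. In the other direction, the peak at 10446656 to 10447024 stood at 81.75% of the replicate 1 list and 27.7% of replicate 2.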

How the data were processed

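The deposited files were peak lists, 1 for each ChIP library and 1 for the series. Peaks were called with MACS per library and MACS v2 for the series, per the source column of the files, and placed on WormBase WS220, per the file headers. BWA and ce10 are named in the submitters' processing notes. The deposited score of a peak is the authors' value. Its meaning, the control, the threshold, the read depth and any pooling are not given in the sources used here. Scores share no known scale between lists, so replicate scores printed side by side are compared by rank within each list, and intervals cover counting error only. Nothing says that replicates came from separate cultures, so their spread may be technical.

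Computation used Python 3.11.15, numpy 2.4.6, pandas 2.3.3 and scipy 1.17.1. The end of the last peak stood for chromosome length, and 2 mitochondrial peaks were left out. Exact binomial and Fisher tests were two-sided at 0.05, with Benjamini-Hochberg adjustment over 7 tests. They take peaks as independent, which neighbouring peaks are not, so each p-value describes its list. Support is overlap of at least 1 bp, and ranks count nuclear peaks from the highest score. Alternatives changed the list, the overlap, the arms, the width of a broad peak or the peaks left out. Code was tested on made-up lists.

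The members, lists and tests were chosen with earlier results of these data known. The peaks to be named were set by rule as the 12 highest-scoring found in both replicates, the 8 widest, the 5 highest-scoring found in neither, the 5 with most different replicate ranks, the ends, the 3 longest gaps and the 5 largest runs. Others named were chosen after their values were seen.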

Additional observations from a re-analysis of the deposited data

How the results depend on the processing

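Direction and side of 0.05 (unadjusted p) were kept in 43 of 58 alternatives. The V ratio of peaks to length was 0.791 to 0.884 in the single replicate lists, missing the threshold in replicate 1 (exact binomial p = 0.0819), and 0.844 among peaks found in both (exact binomial p = 0.13). The central share was 27.4 to 39.3% in the replicate lists and 31.1% in replicate 2 with dense runs left out. With the outer 25% as arms, the central 50% of the length held 55.4% of V peaks (exact binomial p = 0.0583). The left share of arm peaks was 37.8 to 52.5% in the replicate lists. Support on V minus other chromosomes, 3.14 points, was 4.82 against autosomes only, and 1.04 to 3.07 with support by 1 replicate. Support in the centre minus the arms, 2.42 points, was -3.40 in the better-scoring 50% of peaks, -0.163 with the outer 25% as arms, -1.72 with 50% reciprocal overlap and -2.93 to 4.10 with support by 1 replicate. The broad share on V minus others, 1.55 points, was 3.75 above 1000 bp and 2.37 above 2000 bp, and 2.19 to 5.57 in the replicate lists. The broad share in the centre minus the arms, 1.09 points, was -1.64 with the outer 25% as arms and -6.42 to 10.4 in the replicate lists. The replicate lists also change the caller and the score, and the cause of these shifts was not tested. The autosome comparisons and the replicate 2 list with dense runs left out were added after seeing the data. Depth was not given, so absence of a peak is absence from a list. No paired analysis was possible because input files were not used here.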

Other observations

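The replicate lists held V peaks that the series-level list lacked. In replicate 1, 131 of 163 V peaks (80.4%) overlapped a series-level peak, and in replicate 2, 111 of 135 (82.2%). The 32 and 24 others were weak, with median scores of 64.6 and 59.7 and highest scores of 135 and 131. Of these, 2 in each replicate overlapped a peak of the other replicate. Between the replicates, 82 of 163 V peaks of replicate 1 (50.3%, exact 95% interval 42.4 to 58.2%) overlapped a replicate 2 peak, and 70 of 135 V peaks of replicate 2 (51.9%, 43.1 to 60.5%) overlapped a replicate 1 peak. For replicate 2 this was above the shares on I (50.5%), II (36.1%), III (38.7%) and IV (37.9%) and below that on X (63.5%), and these differences were not tested. In replicate 2 the share found again was 67.6% in the centre (25 of 37) and 44.3% on the right arm (27 of 61), where 16 peaks stood in the run near 17.4 Mb.

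Several supported peaks on V counted more than once because a single wide replicate peak overlapped several series-level peaks. This held for 9 peaks of replicate 1, each overlapping up to 5 series-level peaks, and for 5 peaks of replicate 2, with up to 6. The strongest V peaks found in replicate 2 alone were at 7912749 to 7913659 (series-level score 28.0, replicate 2 score 1135) and at 1637963 to 1639078 (24.6 and 1474). The strongest found in replicate 1 alone was at 1151150 to 1151897 (23.6, replicate 1 score 427).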
